A study of Mus musculus with 12 samples.

Results

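The comparison set retinal pigment epithelium (RPE) of mouse embryos labelled as a Sox9 conditional knockout (cKO) against RPE of wild-type (WT) embryos at embryonic day E15.5. It used 3 cKO and 3 WT libraries, 6 of the 12 in the series. The remaining 6 hold the same genotypes at postnatal day 5 (P5). All mice carry the strain label C57BL/6J, and polyadenylated RNA was sequenced. Genes entered the comparison if their value was above 50 in at least 3 of the 6 libraries, which kept 12634 of the 13942 genes in the deposited table. The sources used here do not give the Cre driver, the exons removed, whether a library pooled embryos, or how the RPE was separated from its neighbours. Nor do the labels say that the 3 libraries of a group came from separate litters or animals, so p-values measure the spread between these libraries, which may be technical.

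The RPE is a single layer of pigmented cells between the photoreceptors and the choroid, the vascular coat of the eye. It makes melanin, carries nutrients and lactate across the blood-retina barrier, and regenerates the chromophore of visual pigments from all-trans retinol in the visual cycle. SOX9 is an HMG-box transcription factor best known for its role in cartilage and testis, and in the RPE it is known to act with OTX2 on the promoters of visual cycle genes. At E15.5 the mouse RPE is pigmented but immature, and the photoreceptor outer segments it will serve have not formed.

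The deposited values are the authors' gene counts after quantile normalisation over all 12 libraries, with anything below 50 raised to that floor. Every library therefore has the same median of 367.4 and the same share of genes at the floor, 9.87%, and its sequencing depth is unknown. Across genes, libraries correlated at r = 0.991 to 0.994 within WT and 0.986 to 0.988 within cKO, against 0.988 to 0.994 between the genotypes. The tissue label held in part. Pigment genes were abundant, with the melanosome matrix protein Pmel between 12599 and 24110 in the 6 libraries, while Rpe65, Lrat and Rgr, genes of the mature visual cycle, were at the floor in all 6 and Best1 was not in the table. Neighbouring tissue was present too: Col1a1, the main collagen of mesenchyme, held 274806 in 5 of the 6 libraries, and the summed value of 24 mesenchyme and pericyte markers was 376135 to 571570 in WT and 486616 to 555358 in cKO. The summed value of 19 skeletal muscle markers was 63562 to 115813 in WT and 61840 to 99501 in cKO, and the ranges of the genotypes overlapped in both lists.

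By the number of genes raised in 1 library alone, 2 of the 3 cKO libraries stood apart from the rest. In cKO replicate 1, 45 of the 13942 genes were at least 2-fold above all 5 other libraries, and in cKO replicate 2 there were 27. The counts were 0 in cKO replicate 3, 0 in WT replicates 1 and 2, and 3 in WT replicate 3, which had 3386 for the embryonic globin Hbb-y against 531 to 1038 elsewhere. In cKO replicate 1, the cortical neuron factor Neurod2 was at 385 there and at the floor in the other 5 libraries, and the neural progenitor gene Fabp7 was at 579 against 50 to 112. In cKO replicate 2, the homeobox gene Msx1 stood at 1112 against 57.8 to 80.8 elsewhere, Barx1 at 683 against 50 to 52.8, and the keratin Krt17 at 2098 against 52.1 to 135. A further 8 genes were raised at least 2-fold in both libraries over the other 4, led by the homeobox genes Dlx1 and Dlx2. These genes were picked out after their values were seen and carry no test. On the first principal component of all genes tested, cKO replicate 3 was at 0.57 and cKO replicates 1 and 2 at -0.55 and -0.49. The WT libraries were at 0.32, -0.02 and 0.17, so all 3 cKO libraries lay outside the WT range there. Xist, transcribed from the inactive X, was at the floor in cKO replicate 2 and at 1880 to 4902 in the other 5, while the Y-linked gene Ddx3y was read in all 6, at 203 to 562.

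**Figure D1:**
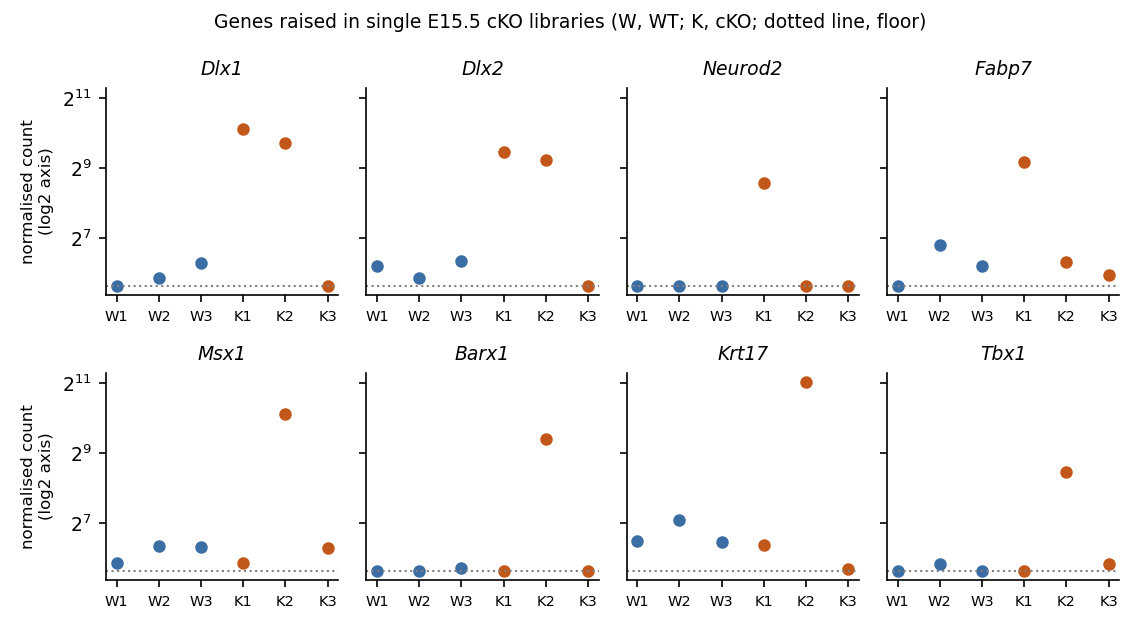
Normalised counts (log2 axis) of 8 genes in the 6 E15.5 libraries, 1 point per library (W, WT replicates 1 to 3; K, cKO replicates 1 to 3), with the floor of 50 dotted. Dlx1 and Dlx2 are high in K1 and K2, Neurod2 and Fabp7 in K1, and Msx1, Barx1, Krt17 and Tbx1 in K2, while K3 lies among or below the WT libraries in most panels.

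The count of Sox9 itself overlapped between the genotypes at this age. Sox9 (ENSMUSG00000000567, GRCm38 chromosome 11, 112782224 to 112787760) was at 1156, 1060 and 932 in WT and at 1034, 990.0 and 1006 in cKO, so the cKO libraries lay inside the WT range. The WT mean was 1049 ± 113 and the cKO mean 1010 ± 22.3 (SD, n = 3 each), a log2 difference, cKO minus WT, of -0.05 ± 0.09 (SE) with a two-sided exact permutation p of 0.7. A gene count adds up reads over all exons and over every cell in the sample, so it checks neither a deletion of part of the gene nor one limited to some cells. The libraries are called cKO here by their label alone. Among the 14 other Sox genes tested none was called and the median log2 difference was 0.01.

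The difference between the genotypes at E15.5 was small in number of genes and lay on one side. A linear model across all genes (limma, Benjamini-Hochberg adjusted p under 0.05) called 5 of 12634 genes lower in cKO, 0.0396% of those tested, and 0 higher. They were Ttr, Slc16a8, Cst3, Rdh10 and Rrh. Each of the 5 has a known place in the RPE: retinol and thyroid hormone carriage, lactate export, secreted protease inhibition, retinol oxidation and a retinal-binding opsin. At an unadjusted p under 0.05 there were 130 genes lower (1.03%) and 84 higher (0.665%). The middle 95% of all log2 differences lay between -0.24 and 0.26, around a median of -0.003. Ttr was the 1 gene called when all 12 libraries were fitted together or when genes near the floor were kept in, so the other 4 calls rest on the filter and on the spread of the E15.5 libraries alone.

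Transthyretin (Ttr, ENSMUSG00000061808, chromosome 18, 20665280 to 20674321) had the largest fall of all genes tested. It binds thyroxine and the retinol-binding protein RBP4, and RPE and choroid plexus are known sources of it. Ttr was at 1602, 1473 and 1454 in WT and at 110, 89.1 and 85.3 in cKO. All 3 cKO libraries sat near the floor and far below the lowest WT library. The fall was 15.9-fold on the linear scale and -3.99 ± 0.11 (log2, SE) in the limma fit (adjusted p = 7.22e-07). Its adjusted p stayed between 6.48e-08 and 0.00919 over the alternatives tried, and Ttr was called in each of them.

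Slc16a8 (ENSMUSG00000032988, chromosome 15, 79251014 to 79254761) encodes MCT3, the lactate transporter of the basolateral RPE membrane. Its values were 315, 281 and 212 in WT and 60.4, 59.8 and 50 in cKO, where 1 library was at the floor. The fall was 4.75-fold, a log2 difference of -2.21 ± 0.17 (SE), adjusted p = 0.00227 by limma. Slc16a8 was called with any single library left out (log2 difference -2.38 to -2.09), but not without both cKO replicates that stood apart (-2.39, adjusted p = 0.0811). That fit compares 1 cKO library with 3 WT libraries and assumes that it varies as the WT libraries do.

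Rrh (ENSMUSG00000028012, chromosome 3, 129804408 to 129822587) encodes peropsin, an opsin of the RPE microvilli that binds all-trans retinal. WT libraries had 214, 183 and 129, and each of the 3 cKO libraries sat at the floor of 50, so the cKO level was at least 3.5-fold below the WT mean. The fitted log2 difference was -1.76 ± 0.19 (SE; adjusted p = 0.0156 by limma). It depends on the floor, so the size of the fall is a lower limit. The SE takes the 3 cKO values as equal. Without any 1 of the cKO libraries Rrh was no longer called, with adjusted p-values of 0.106, 0.0693 and 0.0519 for replicates 1, 2 and 3 left out, and without any 1 of the WT libraries it was above the floor in too few libraries to be tested.

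Rdh10 (ENSMUSG00000025921, chromosome 1, 16105774 to 16133734) encodes a retinol dehydrogenase that serves both the visual cycle and the synthesis of retinoic acid in the embryo. Its values were 1733, 1434 and 1182 in WT and 648, 586 and 551 in cKO. The fall was 2.44-fold, with a log2 difference of -1.27 ± 0.13 (SE; limma, adjusted p = 0.0154). Rdh10 was not called without WT replicate 2 (adjusted p = 0.0698), cKO replicate 1 (0.0513) or cKO replicate 2 (0.0693).

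Cst3 (ENSMUSG00000027447, chromosome 2, 148871722 to 148875692) encodes cystatin C, a secreted inhibitor of cysteine proteases that the RPE makes in large amounts. It was the most abundant of the 5 genes, at 3652, 3647 and 3303 in WT and 2136, 2153 and 1966 in cKO. The fall was 1.69-fold, a log2 difference of -0.76 ± 0.07 (SE), adjusted p = 0.0117 by limma. Cst3 was not called without WT replicate 1 (adjusted p = 0.0909), WT replicate 2 (0.0698), cKO replicate 1 (0.0513) or cKO replicate 2 (0.0679). In each of the 5 genes the groups did not overlap, which gives the smallest p that an exact permutation test of 3 against 3 libraries allows, 0.1. In these bulk samples, fewer cells of a type and less RNA per cell cannot be told apart.

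**Figure D2:**
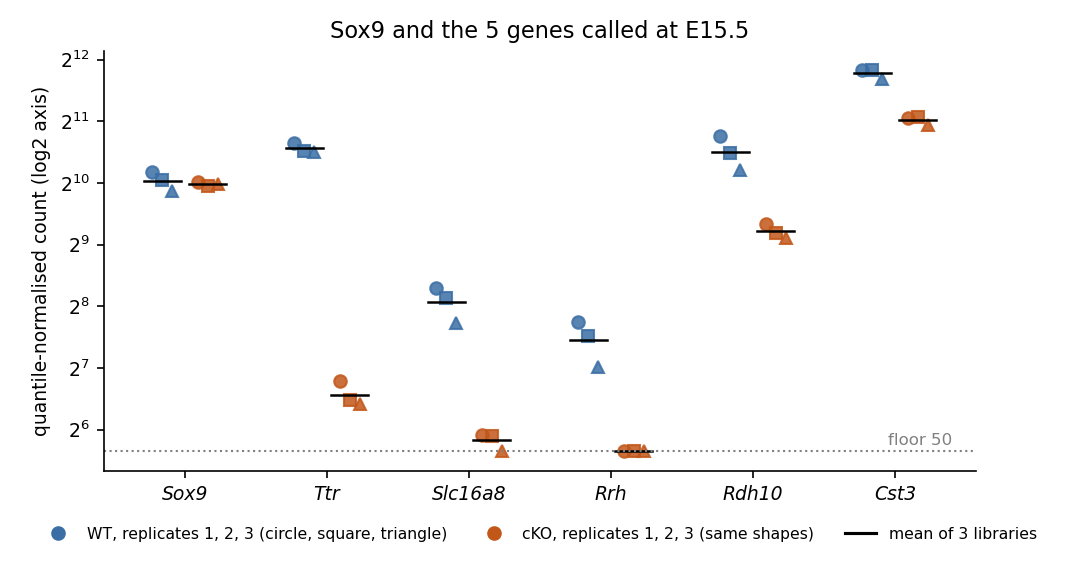
Normalised counts (log2 axis) of Sox9 and the 5 called genes, 1 point per library with the mean of 3 libraries as a bar and the floor of 50 dotted. The Sox9 values of the genotypes overlap, while in Ttr (1454 or more in WT, 110 or less in cKO) and the other 4 genes all 3 cKO libraries lie below all 3 WT libraries.

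The stretches just before the annotated starts of Slc16a8, Rrh and Cst3 are shown because these genes fell together. They come from RefSeq's 300-base promoter windows (GRCm38.p6), read 5′ to 3′ on the minus strand that holds each gene and ending at the base before its GENCODE start. Capitals mark a match to a SOX motif.

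Slc16a8, chr15:79254762-79254998: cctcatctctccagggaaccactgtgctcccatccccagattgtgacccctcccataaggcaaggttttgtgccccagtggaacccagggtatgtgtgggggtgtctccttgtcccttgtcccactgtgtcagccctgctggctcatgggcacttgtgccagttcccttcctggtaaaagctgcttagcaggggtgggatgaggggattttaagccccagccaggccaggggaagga

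Rrh, chr3:129822588-129822755: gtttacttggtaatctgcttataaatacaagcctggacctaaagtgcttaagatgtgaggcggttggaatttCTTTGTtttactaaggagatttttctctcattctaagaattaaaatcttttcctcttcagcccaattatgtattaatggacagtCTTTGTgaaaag

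Cst3, chr2:148875693-148875762: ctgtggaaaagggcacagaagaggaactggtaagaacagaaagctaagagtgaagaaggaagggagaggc

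The whole 300-base windows were searched on both strands for the SOX cores AACAAT and ACAAAG, the OTX core TAATCC, the MITF M-box CATGTG and the E-box CACGTG. Only the Rrh window held any, with ACAAAG on the opposite strand, written CTTTGT, at bases -178 to -173 and -94 to -89 from RefSeq's start. Of the 32851 promoters in the table, 18.7% hold ACAAAG or its complement, 10.7% AACAAT, 7.06% TAATCC, 14.2% CATGTG and 7.15% CACGTG. A match is a description and not a bound site, and no match says only that these letters are not in the window. The table gave no promoter for Rdh10, and that of Ttr was not looked up.

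The visual cycle list had the lowest median difference among the RPE lists. Of 12 genes for retinoid enzymes, carriers and uptake, 3 were at the floor in all 6 libraries and 9 were tested. The 3 called were Ttr, Rdh10 and Rrh, while 0.0396% of all genes tested were called lower. The list was chosen with earlier results of these data known. In 6 of the 9 every cKO library was below every WT library. Of all genes tested, 5.45% had groups without overlap, 3.2% lower and 2.26% higher in cKO. The median log2 difference of the list was -0.61. The other genes without overlap did not pass the test. Rdh5, which oxidises 11-cis retinol to the chromophore, was at 301, 271 and 217 in WT and 173, 127 and 172 in cKO, a log2 difference of -0.74 ± 0.16 (SE; adjusted p = 0.886 by limma). Rlbp1, which encodes the retinal carrier CRALBP, was at 1603, 1223 and 1094 in WT and 955, 700 and 906 in cKO (-0.61 ± 0.16). Stra6, the RBP4 receptor, had overlapping groups (-0.12 ± 0.14). Other enzymes that make and degrade retinoic acid and its receptors made up a separate list of 13 tested genes. Rdh10, which also serves retinoic acid synthesis, was counted in the visual cycle list and not in this one. In the separate list 0 were called, 0 had groups without overlap and the median was -0.07.

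Of 21 tested genes for transport of ions, lactate, sugar and water, Slc16a8 alone was called, and the list's median log2 difference was -0.01. The lactate transporter gene Slc16a1 (MCT1) and Bsg, which encodes the chaperone of these transporters, had values of -0.01 ± 0.09 and -0.06 ± 0.08 (log2, SE), with overlapping groups. The organic anion transporter Slc22a8 had 119, 66.3 and 58.4 in WT and the floor value in each cKO library, but was not called (adjusted p = 1 by limma). The glucose transporter Slc2a1 ranged from 4354 to 5404 in WT and 3679 to 5559 in cKO. None of the 10 phagocytosis genes (median 0.04) or the 14 junction and polarity genes (median -0.01) was called.

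No pigment gene was called. Among 23 melanosome genes 1 had groups without overlap on each side, and the median log2 difference was -0.08. Of all genes tested, 3.2% were lower and 2.26% higher in cKO without overlap. Tyrosinase (Tyr), the first enzyme of melanin synthesis, was at 3813, 2891 and 2306 in WT and 3776, 2690 and 3478 in cKO. Dct, the dopachrome tautomerase, was at 7560, 6114 and 5105 in WT and 5694, 4013 and 5718 in cKO (-0.28 ± 0.17). The summed value of the 23 genes was 62190, 48987 and 45496 in WT replicates 1 to 3, and 52862, 36042 and 60966 in cKO. WT replicate 1, highest in this sum, had 1602 of Ttr. Next came cKO replicate 3, which had 85.3 of Ttr, and cKO replicate 2, the lowest, had 89.1. Whether the genotypes differed in their share of RPE cells was not tested. With the melanosome signal of each library as a term in the model, all 5 genes were still called, Ttr at -3.97 and Slc16a8 at -2.20.

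**Figure D3:**
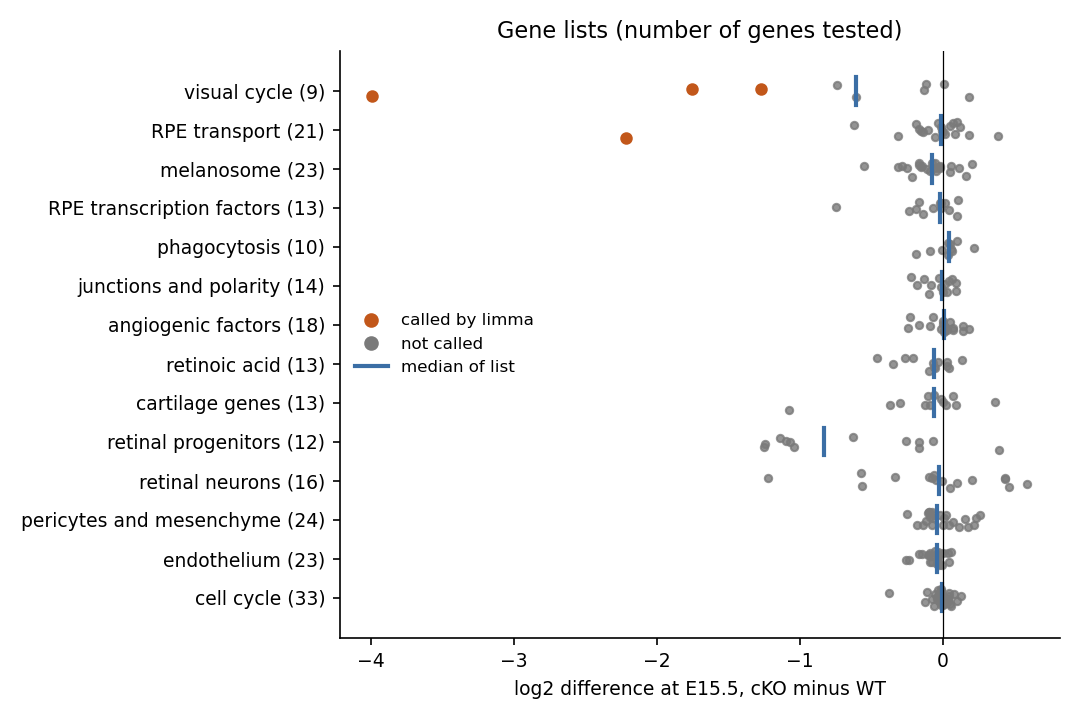
Log2 differences, cKO minus WT, of the genes tested in 14 lists, 1 point per gene with the list's median as a bar (n of genes in brackets). The 4 called genes of the lists are orange and lie in the visual cycle and transport lists, and the medians of the visual cycle (-0.61) and retinal progenitor (-0.83) lists lie away from 0.

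The 13 tested transcription factors of the RPE had a median log2 difference of -0.02 and 0 calls. Mitf, the regulator of pigment cells, was at 803, 693 and 723 in WT and 820, 541 and 788 in cKO. Otx2, the partner of SOX9 at RPE promoters, was at 1650, 1412 and 1250 in WT and 1383, 1153 and 1237 in cKO, a log2 difference of -0.19 ± 0.11 (SE). Pax6 differed by -0.17 ± 0.15 (SE). The 1 factor without overlap was Rax, which also marks retinal progenitors, at 166, 114 and 226 in WT and 94.9, 89.3 and 105 in cKO (-0.75 ± 0.22, adjusted p = 1 by limma). Among all genes tested, 3.2% were lower in cKO without overlap.

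Of 13 tested genes that SOX9 drives in cartilage, 0 were called and the median log2 difference was -0.06. Col9a3, a chain of type IX collagen, was at 875, 757 and 555 in WT and 340, 306 and 377 in cKO, a log2 difference of -1.07 ± 0.16 (SE) that did not pass (adjusted p = 0.152 by limma). It passed without WT replicate 3 (-1.26, adjusted p = 0.0203) and with library weights. Col9a2, of the same trimer, had a value of -0.30 ± 0.09 without overlap. In all, 2 of the 13 genes were lower without overlap, against 3.2% of all genes tested. Col2a1, the main collagen of cartilage and a textbook SOX9 target, was at 3612, 2972 and 3086 in WT and 3144, 2418 and 3357 in cKO.

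At least 2-fold differences were found in 17 genes lower in cKO (0.135%) and 6 higher (0.0475%), of which 16 (0.127%) and 1 (0.00792%) had groups without overlap. Beside the called genes, falls were ranked among genes without overlap whose WT mean was at least 100. The largest of these falls reported here were Six6 (-1.25 ± 0.22), Neurog2 (-1.25 ± 0.17), Sncg (-1.22 ± 0.27), Elovl7 (-1.17 ± 0.24), Sv2b (-1.13 ± 0.19), Foxn4 (-1.10 ± 0.21) and Mfap3l (-1.09 ± 0.17), as log2 values with SE. None passed, with Neurog2 nearest at an adjusted p of 0.116 by limma. Six6, Neurog2 and Foxn4 are transcription factors of the neural retina, Sncg encodes the gamma-synuclein of ganglion cells, and Elovl7 is a fatty acid elongase. Sncg had the lowest value in a list of retinal neuron genes. Of the 16 tested in that list, 9 were below 0 and 7 above, with a median of -0.03. Ptgds, the prostaglandin D synthase that RPE secretes, was at 1634, 1501 and 900 in WT and 810, 609 and 616 in cKO (-0.95 ± 0.21, adjusted p = 0.886).

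**Figure D4:**
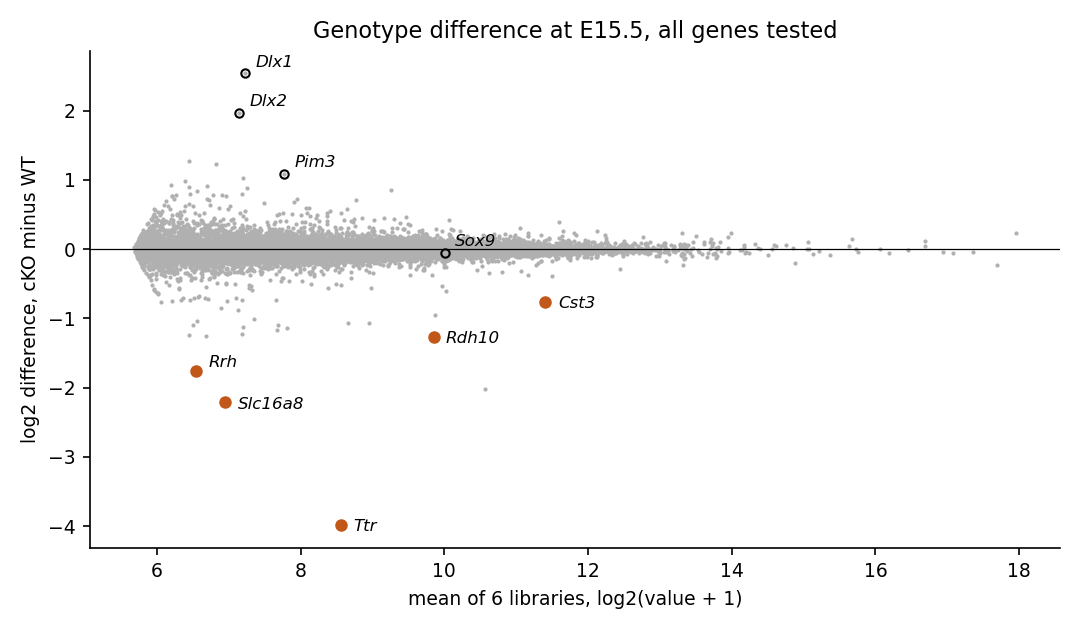
Log2 difference, cKO minus WT, against the mean of log2(value + 1) over the 6 libraries for all 12634 genes tested. The 5 called genes (orange) all lie below 0, from Cst3 at -0.76 to Ttr at -3.99, while Dlx1, Dlx2 and Pim3 (open circles), with positive values, were not called.

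Most markers of retinal progenitors had lower values in cKO, and none was called. Of 16 markers, 14 were in the table and 12 were tested. Among these, 7 had every cKO library below the WT range and 1 had every cKO library above it, against 3.2% and 2.26% of all genes tested, and the median log2 difference was -0.83. Six6, a homeobox factor of retinal progenitors, was at 132, 138 and 214 in WT and 52.1, 66.4 and 80.9 in cKO. Fgf15, a progenitor growth factor, was at 602, 426 and 788 in WT and 324, 236 and 285 in cKO, and Atoh7, needed for ganglion cells, at 95.5, 110 and 232 against 50, 63.9 and 85.8. Six3 had a value of -0.26 ± 0.10 (SE) with overlap. Sfrp2, a secreted Wnt modulator that mesenchyme also makes, went the other way, at 2786, 2499 and 2845 in WT and 3415, 3703 and 3512 in cKO (0.39 ± 0.08, adjusted p = 0.488 by limma).

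The summed value of the 14 progenitor markers was 5426 to 7069 in WT and 5963 to 6101 in cKO, and without Sfrp2 it was 2927 to 4224 in WT and 2390 to 2686 in cKO. Each progenitor marker named here was above the floor in at least 1 library of both genotypes. With that signal, Sfrp2 left out, as a term in the model, Ttr was still called (-3.95, adjusted p = 0.00919 by limma). Slc16a8 (-2.64), Rrh (-2.24), Rdh10 (-1.49) and Cst3 (-0.93) were not (adjusted p = 0.9997 for each of the 4). The genotypes did not overlap in that signal, so the fit could hardly separate it from genotype. The SE with the term was 0.40 for Slc16a8, against 0.17 without it. It was 0.44 against 0.19 for Rrh, 0.33 against 0.13 for Rdh10 and 0.18 against 0.07 for Cst3. The part of progenitor RNA in the values of these 4 genes was not tested. Of 25 photoreceptor genes, 17 were at the floor in all 6 libraries.

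No vessel or cell cycle gene was called. Among 18 angiogenic and angiostatic factors 0 were called, with a median of 0.01, and Vegfa, which the RPE supplies to the choroid, was at 2047, 1911 and 1875 in WT and 2039, 1919 and 2168 in cKO (0.07 ± 0.07). None of 23 endothelial markers was called, at a median of -0.04, with 20 of 23 below 0. The median of all genes tested was -0.003. The fenestral protein gene Plvap was at 1758, 1540 and 1517 in WT and 1418, 1242 and 1414 in cKO (-0.24 ± 0.09). It was 1 of 3 endothelial genes without overlap, all lower in cKO, as were 3.2% of all genes tested. The 33 cell cycle genes had a median of -0.01 and 0 calls. Ttr is also a marker of choroid plexus, and of the 9 other choroid plexus genes tested 0 were called. With Ttr, 5 of the 10 choroid plexus genes tested were below 0 and 5 above, with a median of -0.03. Folr1 was at 101 to 122 in WT and 115 to 167 in cKO. Calml4, the highest of the list, had all 3 cKO libraries above WT (0.35 ± 0.17), as had 2.26% of all genes tested. Of 12 tested genes of thyroid hormone carriage and response, Ttr alone was called.

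No gene was called higher in cKO. The largest positive differences among genes without overlap whose cKO mean was at least 100 were those of the kinase gene Pim3 (1.09 ± 0.31), Mpped1 (0.88 ± 0.28), the homeobox gene Dlx3 (0.79 ± 0.38), the corepressor Hr (0.78 ± 0.31) and the neural POU factor Pou3f3 (0.71 ± 0.21), given as log2 differences with SE and all with an adjusted p of 1 by limma. The other 7 were Shisa7, Agap2, Upk3b, Hap1, Ephb1, Dab1 and Lrtm2, from 0.41 to 0.66. Pim3 was at 178, 220 and 84.1 in WT and 282, 381 and 300 in cKO, and is the 1 gene that was at least 2-fold higher without overlap.

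Several of these values rested on the pair of cKO libraries that stood apart. Dlx1, which patterns the forebrain and the jaw, was at 50, 58.4 and 78.5 in WT and at 1101, 839 and 50 in cKO, and Dlx2 at 73.4, 58.2 and 81.2 in WT and 706, 604 and 50 in cKO. In both genes cKO replicate 3 lay at the floor with or below WT. Without cKO replicate 3, limma called 7 genes and 3 of them higher, Dlx1, Dlx2 and Mpped1, and without replicates 1 and 2 the Dlx2 difference was -0.48. Mpped1 was at 266, 277 and 119 in cKO against 105 to 117 in WT, and Dlx3 at 124, 404 and 137 against 103 to 123. Hap1 was at 546 in cKO replicate 2 and 226 in both other cKO libraries. Hr was at 105.5, 249.8 and 110.5 in cKO against 64.8 to 96.2 in WT, and its difference was 0.38 without cKO replicate 2, where that of Dlx3 was 0.25. Pou3f3 was at 829, 501 and 420 in cKO against 330 to 354 in WT, with a difference of 0.43 without cKO replicate 1. Pim3 kept a difference of 1.01 without cKO replicates 1 and 2, but it was 0.68 without WT replicate 3, the library at 84.1. Without cKO replicates 1 and 2, Ttr was the 1 gene called lower (-4.13, adjusted p = 1.33e-05).

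At P5 the genotypes overlapped in all 5 genes. Ttr was at 77449, 77449 and 42122 in WT and 37268, 68217 and 77449 in cKO. Quantile normalisation gives libraries the same value at the same rank, hence the repeated 77449, and few steps separate the highest ranks. The log2 difference was -0.12, and the interaction, the P5 difference minus that at E15.5, was 3.87 ± 0.41 (SE; limma, adjusted p = 0.00544 over 13523 genes). The interaction was called in 8 genes, 0.0592%, and Ttr was 1 of them. Slc16a8 was at 4112, 5616 and 1927 in WT and 2561, 3965 and 4874 in cKO at P5, a difference of 0.05, with an interaction of 2.27 ± 0.50 that did not pass (adjusted p = 0.538). Rrh differed by -0.12 at P5 (interaction 1.64 ± 0.43, adjusted p = 0.949), Rdh10 by 0.08 (1.35 ± 0.46, adjusted p = 0.99999) and Cst3 by -0.04 (0.72 ± 0.31, adjusted p = 0.99999). For these 4 genes a difference between the ages was not shown. The P5 libraries spread more widely, with a median SD between replicates of 0.305 in WT and 0.224 in cKO on the log2 scale against 0.111 and 0.121 at E15.5.

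**Figure D5:**
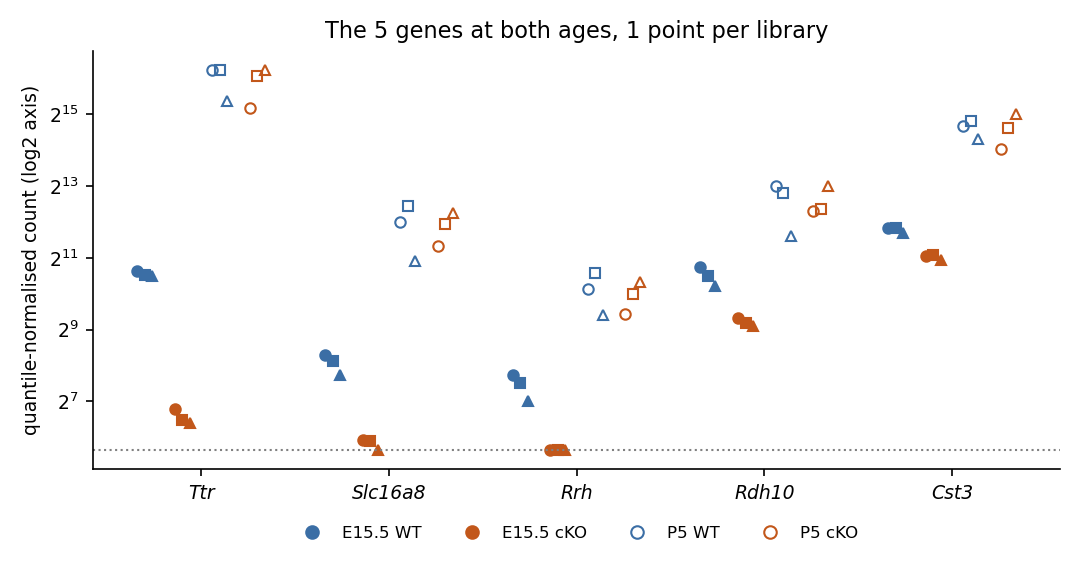
Normalised counts (log2 axis) of the 5 genes at E15.5 (filled) and P5 (open) in WT (blue) and cKO (orange), 1 point per library with replicates 1 to 3 as circle, square and triangle and the floor of 50 dotted. All 5 genes were higher at P5 than at E15.5 in both genotypes, and the genotypes overlap at P5, where Ttr spans 37268 to 77449.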

How the data were processed

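RNA from RPE was measured in 12 libraries, of which the 6 from E15.5 (3 WT, 3 cKO) were analysed. Per the submitters' processing notes, reads were handled with TopHat2 2.0.10 and HTSeq on the mm10 build. The sources used here do not give the annotation, the strand setting or the gene filter. Per the labels, the deposited table holds counts quantile-normalised by the authors with a floor of 50, a signal with no recoverable depth, so no count model was used and counting error cannot be given. All 12 columns hold the same sorted values. No 2 libraries were identical. Positions come from GENCODE M21 (13927 gene IDs matched) and promoters from RefSeq's table for GRCm38.p6 (3 of 4 genes looked up, Ttr not among them).

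Genes above 50 in at least 3 of the 6 libraries were fitted with limma 3.58.1 (R 4.3.3; lmFit and eBayes with a variance trend) on log2(value + 1), with 4 residual and 8.96 total degrees of freedom, adjusted after Benjamini and Hochberg over 12634 genes and called at 0.05. Differences on this scale understate changes near the floor. Linear folds compare group means. The interaction with age was fitted on all 12 libraries (13523 genes). Two-sided exact permutation tests of 3 against 3 stand beside single genes. The fit was checked on simulated data in which only genes well above the floor were changed. That check did not cover falls to near the floor, as in Slc16a8 and Rrh, or libraries that stand apart.

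Named genes are Sox9, every called gene, the 12 largest rises and falls among genes whose groups do not overlap and whose higher group averages at least 100, and list members. Some genes that the rule names are not reported here. Genes most like Ttr were not sought, since the libraries form separate clusters in Ttr. The members and lists were chosen with earlier results of these data known. Lists carry no test. Alternatives were other pseudocounts, filters, variance models, library weights, recentring, a replicate block, a fit of all 12 libraries and each library left out. Terms for pigment and progenitor signal and the fit without cKO replicates 1 and 2 were added after seeing the data.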

Additional observations from a re-analysis of the deposited data

Results flagged for a closer look

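The genotype difference in Ttr differed between the ages by a test of the difference itself. The interaction, the P5 log2 difference minus the E15.5 one, was 3.87 ± 0.41 (SE; limma, adjusted p = 0.00544), with -3.99 at E15.5, where the genotypes did not overlap, and -0.12 at P5, where they did. At P5 the value 77449 recurred in both genotypes. Few steps separate such high ranks after quantile normalisation, which limits the P5 difference that can be seen.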

How the results depend on the processing

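The 5 calls at E15.5 were also the calls with no pseudocount, a pseudocount of 16, robust variances, recentred libraries and the added term for melanosome signal. The count was 1 (Ttr) without the filter on low values, with all 12 libraries in 1 fit, with the added term for progenitor signal and without cKO replicates 1 and 2. It was 3 among genes averaging at least 200 (Ttr, Cst3, Rdh10), 3 without the variance trend (Ttr, Slc16a8, Rrh), and 8 with library weights, which added Col9a3, Mfap3l and Sv2b. Leaving out 1 library gave 2 to 7: 3 without WT replicate 1, 2 without WT replicate 2, cKO replicate 1 or cKO replicate 2, 5 without WT replicate 3 and 7 without cKO replicate 3. Ttr and Slc16a8 were among the calls each time. The cause was not tested. The replicate number as a block gave 4 calls and lost Rrh (adjusted p = 0.0525). Same-numbered libraries deviated together with r of -0.02, 0.28 and -0.02, against -0.22 to 0.23 for different numbers. The highest r was that of replicate 2, but not every library correlated best with its own number. Whether the numbers mark a shared origin was not settled.

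The interaction count of 8 was 2 among genes averaging at least 200, 32 with library weights, 6 with the replicate block and 3 to 18 with 1 library left out, 18 without P5 cKO replicate 1. Ttr was among the calls in each.

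Over the genes named with a test, 822 values kept direction and side of the threshold, 29 lost a call, 7 gained one and 20 reversed, none of them of a called gene. With 1 library left out, Sox9 ranged from -0.13 to 0.023 (positive without WT replicate 1), Stra6 from -0.24 to 0.011 (positive without WT replicate 1, at 0.0098, or cKO replicate 2), Mitf from -0.18 to 0.12, Pax6 from -0.28 to 0.032 and Pmel from -0.25 to 0.22 (all 3 positive without cKO replicate 2, Pmel also without WT replicate 1, at 0.10), and Tyr was -0.017 without WT replicate 3. With the progenitor term Sncg was 0.10, Pim3 -0.58, Hr -0.017, Upk3b -0.21, Rax 0.51, Mitf 0.19 and Pmel 0.16, and with the melanosome term Mitf was 0.030. Without cKO replicates 1 and 2, Stra6 was 0.12, Dlx2 -0.48, Mitf 0.093, Pax6 0.0094 and Pmel 0.35. Depth is unknown, and differences below the floor of 50 cannot be seen.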
